A study of Homo sapiens with 15 samples.

Results

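The genes of the constitutive proteasome were examined in 15 RNA sequencing libraries of 12Z cells. Protein-coding genes with a symbol of PSM, a letter from A to G and a number were taken, and the immunoproteasome subunits PSMB8, PSMB9 and PSMB10 were set aside. This gave 45 of the 60617 genes in the count tables. Of these 45, 43 reached a mean of 1 count per library and were among the 23184 genes tested. The other two, PSMA8 (a testis form of an alpha subunit) and PSMB11 (a thymus form of a beta subunit), had 0 counts in all 15 libraries and were not detectable at this depth.

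12Z is an immortalised line of epithelial cells from an endometriotic lesion. The 5 groups held 3 libraries each, which by the methods of the study came from independent experiments. All cells received an siRNA pool, then a pBabe plasmid 24 h later, and after a further 24 h they were kept without serum for 4 h and given 100 nM insulin or its vehicle for 24 h. The groups were non-targeting siRNA (siNT) with empty vector and vehicle, siRSAD2 with empty vector and vehicle, siRSAD2 with empty vector and insulin, siRSAD2 with PIK3CA H1047R and vehicle, and siRSAD2 with PIK3CA H1047R and insulin. RSAD2 encodes viperin, an antiviral enzyme, and H1047R is an activating substitution in the catalytic subunit of phosphatidylinositol 3-kinase. Insulin and H1047R were thus compared only in cells that all carried the RSAD2 siRNA, and both nucleic acids were transiently transfected into 1 cell line. The labelled genes moved as labelled, with RSAD2 lower by 3.29 ± 0.42 (SE) on the log2 scale with siRSAD2 and PIK3CA higher by 1.25 ± 0.05 with H1047R in vehicle (edgeR quasi-likelihood test, adjusted p = 6.62e-07 and 2.32e-16). Among markers of the labelled cell type, KRT8, KRT18 and KRT19 had at least 414 normalised counts per M of the library (CPM) in every library, whereas EPCAM and CDH1 had at most 1.00 CPM and the stromal marker COL1A1 had at least 2170 CPM. The labelled genes were not level across the siRSAD2 groups. With H1047R, PIK3CA had a mean of 211 CPM in vehicle and 163 CPM with insulin. RSAD2 had a mean of 0.33 CPM in both empty-vector groups, and 0.90 and 0.84 CPM with H1047R in vehicle and insulin.

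The proteasome is the barrel-shaped protease that degrades proteins tagged with ubiquitin. Its core particle (20S) stacks rings of alpha subunits, which gate the entry, around rings of beta subunits, of which PSMB5, PSMB6 and PSMB7 cut peptide bonds. The regulatory particle (19S) binds ubiquitin, removes it and unfolds the substrate with a ring of ATPases, and dedicated chaperones assist the assembly of both particles. Cells whose proteasome is inhibited are known to raise the subunit genes together through the transcription factor NFE2L1, which binds antioxidant response elements, and several of these genes also carry CCAAT boxes, the binding sequence of NF-Y.

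The promoters of the 3 genes that were higher with insulin in H1047R cells are shown, 250 bases before the RefSeq transcript start in GRCh38.p14 and written 5′ to 3′ along the gene. PSMA3 and PSMC2 were also higher in empty-vector cells. Capitals mark CCAAT boxes and matches to TGACNNNGC or TGAGNNNGC, the core of the antioxidant response element, on either strand. PSMA3 lies at chr14:58244593-58244842 on the plus strand, PSMC2 at chr7:103347393-103347642 on the plus strand, and PSMA5 at chr1:109426449-109426698 on the minus strand.
PSMA3: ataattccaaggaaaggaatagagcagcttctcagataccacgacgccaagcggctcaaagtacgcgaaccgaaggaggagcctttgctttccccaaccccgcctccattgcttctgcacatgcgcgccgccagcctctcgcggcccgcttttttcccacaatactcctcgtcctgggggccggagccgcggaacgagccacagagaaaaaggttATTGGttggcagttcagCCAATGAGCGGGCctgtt
PSMC2: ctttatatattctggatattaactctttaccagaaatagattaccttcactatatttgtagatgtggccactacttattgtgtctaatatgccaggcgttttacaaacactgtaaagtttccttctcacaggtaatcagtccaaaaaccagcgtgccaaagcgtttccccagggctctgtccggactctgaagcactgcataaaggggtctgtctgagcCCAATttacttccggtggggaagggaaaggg
PSMA5: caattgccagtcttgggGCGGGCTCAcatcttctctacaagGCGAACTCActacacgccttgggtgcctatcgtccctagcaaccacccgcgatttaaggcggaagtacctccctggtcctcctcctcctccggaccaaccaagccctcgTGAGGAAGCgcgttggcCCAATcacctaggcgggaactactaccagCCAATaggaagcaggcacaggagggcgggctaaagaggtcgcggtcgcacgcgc

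PSMA3 held CCAAT at bases -35 and -18 from the start and a TGAGNNNGC match at -14 that shared 1 base with the second box. PSMC2 held a single CCAAT at -31 and no response element match. PSMA5 held 3 TGAGNNNGC matches, at -233, -209 and -100, and CCAAT at -83 and -54. Promoter sequence was found for 37 of the 43 measured genes, all but PSMA7, PSMB1, PSMB6, PSMB7, PSMD4 and PSMG3. TGACNNNGC occurred in 10 of the 37 (27.0%, against 11.5% of 15325 protein-coding promoters), TGAGNNNGC in 10 (27.0%, against 15.6%), and either form in 16 (43.2%, against 25.3%). CCAAT occurred in 16 of the 37 (43.2%, against 34.8%). Among the 15 genes that passed the test for insulin averaged over both vectors, all with a promoter in the table, 6 held a response element match and 7 a CCAAT, and among the other 22 these counts were 10 and 9. The match counts were thus spread over genes that did and did not pass.

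Gene levels were compared per kilobase of the reference transcript. The median of the 43 genes was 67.8 CPM per kb over the 15 libraries, and the highest were the alpha subunit PSMA7 (266.9 CPM per kb) and the beta subunit PSMB1 (256.1). By role, the median was 153.6 CPM per kb for the 7 beta subunits, 85.2 for the 11 non-ATPase subunits of the 19S particle, 65.9 for the 6 ATPases, 67.3 for the 5 activators and inhibitor, 36.2 for the 3 chaperones of the 19S base and 28.1 for the 4 chaperones of the 20S particle. The 4 lowest genes were PSMD9 (1.40 CPM per kb), PSMA2 (5.18), PSMA6 (7.37) and PSMA1 (13.0), and the lowest ATPase was PSMC1 (16.2). These values rest on 1 reference transcript per gene, of 762 to 8154 bases. PSMC1 (4390 bases) and the ATPase PSMC4 (1754 bases) were close before the division, at 71.0 and 76.3 CPM. Whether the cells expressed transcripts of other lengths was not tested.

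The low values of those 4 genes coincided with the annotation. PSMA2 shared 100% of its reference transcript with exons of another protein-coding gene model on the same strand, PSMA6 81.4%, PSMA1 67.0% and PSMD9 28.8%, whereas the other measured genes shared no exon with such a model. The counting set aside reads that fall in more than 1 gene, and the overlapping models themselves had at most 2 counts per library. The levels of these 4 genes are therefore uncertain, and only the 4 alpha subunits without such an overlap (33.7 to 266.9 CPM per kb, median 102.3) can be set beside the other rings. For PSMD9 the shared part is the smallest, and whether it accounts for the low level was not tested. The median over the 40 genes that share under 50% of their transcript, PSMD9 among them, was 74.7 CPM per kb. Pseudogenes of the subunits, which could take reads of their parents, had 122 to 329 counts in all per library over the 36 that were detected. Reads that map to more than 1 place, 9.92% to 17.1% of read pairs per library, were counted for no gene. The pseudogene counts therefore do not show how many reads the parents lost.

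**Figure D1:**
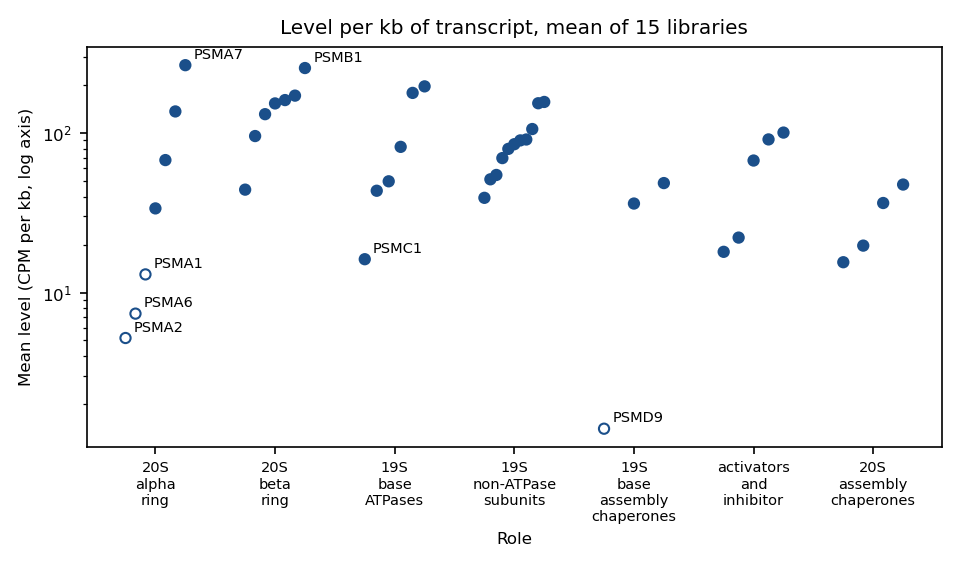
Mean level of each of the 43 measured proteasome genes over 15 libraries, in CPM per kb of the reference transcript on a log axis, grouped by role. Open circles are the 4 genes that share exons with another gene model, from PSMD9 at 1.40 to PSMA1 at 13.0 CPM per kb, and PSMA7 and PSMB1 are the highest at 266.9 and 256.1.

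Insulin was compared with vehicle separately with each vector, and these comparisons share no library. With empty vector, 8 of the 43 genes were higher and none lower (edgeR quasi-likelihood test, Benjamini-Hochberg adjusted p below 0.05), while 2.1% of all genes tested were called higher and 4.19% lower. Among genes of at least 50 CPM, a level that 37 of the proteasome genes reached, 3.81% were called higher. The 8 genes were the alpha subunit PSMA3, the ATPases PSMC1, PSMC2 and PSMC6, the non-ATPase subunits PSMD6, PSMD11 and PSMD14, and the chaperone PSMG1. The baseline was siRSAD2 vehicle cells. Set beside the siNT vehicle libraries, which also differ in siRNA, the empty-vector insulin libraries overlapped for PSMC1 and PSMC6. They were only just above them for PSMA3, PSMC2 and PSMD6, and well above them for PSMD11, PSMD14 and PSMG1. With H1047R, 3 were higher, PSMA3, PSMA5 and PSMC2, and none lower, against 0.483% of all genes called higher, 1.99% called lower, and 1.24% called higher among genes of at least 50 CPM. The differences were small, between 10.95% and 20.3% for the called genes. In these bulk samples a change in the RNA per cell and a change in the number of cells of one kind cannot be told apart.

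The summed level of the 43 genes was 5771, 5999 and 6029 CPM in the 3 empty-vector vehicle libraries and 6333, 6344 and 6204 CPM in the empty-vector insulin libraries. With H1047R it was 5942, 6112 and 5841 CPM in vehicle and 6418, 6324 and 6523 CPM with insulin. With both vectors, every insulin library was thus above every vehicle library. The siNT libraries, at 5843, 5982 and 5945 CPM, lay within the range of the siRSAD2 vehicle libraries.

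**Figure D2:**
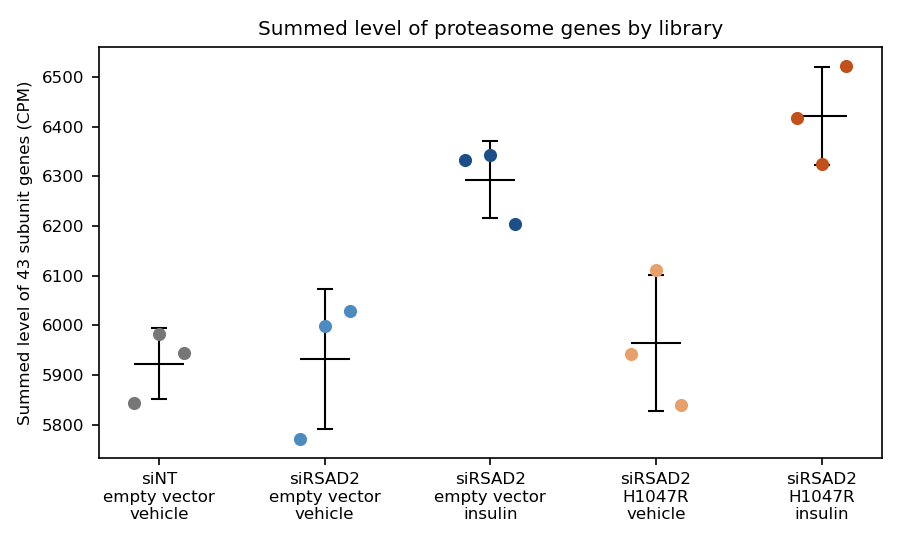
Summed level of 43 proteasome genes (CPM) in each library by group, with the mean as a horizontal line and the SD as an error bar (n = 3); the vertical axis does not start at 0. The empty-vector insulin libraries (6204 to 6344 CPM) and the H1047R insulin libraries (6324 to 6523 CPM) lie above the vehicle libraries with the same vector.

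The median log2 difference with insulin over the 43 genes was 0.08 with empty vector and 0.11 with H1047R, where the medians over all genes tested were 0.001 and -0.0013. It was positive for 37 genes with empty vector and for 40 with H1047R, and for 34 of the 43 (79.1%) with both, against 29.4% of all genes tested. Insulin and vehicle libraries did not overlap, with insulin higher, for 17 genes with empty vector (9.28% of all genes) and 23 with H1047R (8.83%), and 0 were lower without overlap with either vector (9.6% and 10.5% of all genes). This held with both vectors for 12 of the 43, PSMA3, PSMA4, PSMA5, PSMB7, PSMC1, PSMC2, PSMC6, PSMD6, PSMD11, PSMD14, PSME2 and PSMG1, and for 2.3% of all genes tested (4.62% of those of at least 50 CPM).

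PSMC2, an ATPase of the 19S base, had 206, 217 and 208 CPM in empty-vector vehicle cells and 231, 248 and 230 CPM with insulin. With H1047R it had 206, 213 and 209 CPM in vehicle and 233, 237 and 237 CPM with insulin. The insulin libraries were the higher ones with both vectors, without overlap. The log2 difference was 0.17 ± 0.05 (SE) with each vector, or 12.4% and 12.6% (edgeR adjusted p = 0.0194 and 0.0328, n = 3). PSMC2 had the smallest adjusted p of the 43 when the insulin effect was averaged over both vectors (0.17 ± 0.03, edgeR adjusted p = 0.000423).

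PSMA3, a subunit of the alpha ring, had 117, 123 and 124 CPM in empty-vector vehicle cells and 139, 142 and 135 CPM with insulin. With H1047R it had 122, 136 and 112 CPM in vehicle and 139, 142 and 145 CPM with insulin. The groups did not overlap with either vector, although H1047R vehicle library 2 came close to the insulin libraries. Its log2 difference was 0.19 ± 0.06 with empty vector and 0.20 ± 0.06 with H1047R (edgeR adjusted p = 0.0379 and 0.0486).

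PSMA5, another alpha subunit, had 112, 125 and 122 CPM in empty-vector vehicle cells and 135, 126 and 134 CPM with insulin. With H1047R it had 127, 132 and 125 CPM in vehicle and 140, 147 and 148 CPM with insulin. The H1047R groups were well apart, while the empty-vector groups were separated by about 1 CPM. The log2 difference passed with H1047R (0.18 ± 0.05, edgeR adjusted p = 0.0449) and not with empty vector (0.14, edgeR adjusted p = 0.0977). PSMA4, an alpha subunit as well, had a log2 difference of 0.16 with each vector (edgeR adjusted p = 0.0808 and 0.152) and passed only as an average over both (edgeR adjusted p = 0.00652). With empty vector it had 282, 286 and 294 CPM in vehicle and 307, 358 and 295 CPM with insulin. Its empty-vector insulin library 2 stood far above the others, and library 3 was only just above the vehicle libraries.

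Among the ATPases, PSMC6 had 99.7, 101 and 104 CPM in empty-vector vehicle cells and 108, 124 and 114 CPM with insulin (log2 difference 0.18 ± 0.05, edgeR adjusted p = 0.0275). PSMC1 had 66.6, 66.7 and 67.9 CPM in vehicle and 74.5, 97.2 and 69.6 CPM with insulin, the largest difference of the 8 (0.27 ± 0.08, or 20.3%, edgeR adjusted p = 0.0293). Its insulin library 2 stood far above the other two, and without that library the difference was 0.10 (edgeR adjusted p = 0.359). With H1047R, PSMC1 and PSMC6 had log2 differences of 0.14 and 0.12 that did not pass (edgeR adjusted p = 0.533 and 0.354), again with no overlap of the groups. PSMC3, PSMC4 and PSMC5 had differences of 0.07 to 0.13 with either vector, and none passed in a single comparison.

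The non-ATPase subunit PSMD6, part of the lid of the 19S particle, had 84.5, 88.3 and 86.5 CPM in empty-vector vehicle cells and 99.8, 104 and 99.8 CPM with insulin. The insulin libraries were all above these siRSAD2 vehicle libraries by more than either group's spread. This was the smallest adjusted p with empty vector (log2 difference 0.23 ± 0.05, or 17.1%, edgeR adjusted p = 0.00347). The siNT vehicle libraries had 89.5, 99.2 and 97.0 CPM, the highest of them just below the lowest insulin library. With H1047R, PSMD6 had 92.8, 93.2 and 92.5 CPM in vehicle and 100.5, 96.5 and 101 CPM with insulin, a difference of 0.10 (edgeR adjusted p = 0.482).

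PSMD14, the lid deubiquitinase that cuts ubiquitin chains off substrates, had 131, 135 and 139 CPM in empty-vector vehicle cells and 157, 153 and 148 CPM with insulin (0.17 ± 0.05, edgeR adjusted p = 0.0207). PSMD11, a lid scaffold subunit, had 203, 206 and 206 CPM in vehicle and 226, 223 and 233 CPM with insulin (0.15 ± 0.04, edgeR adjusted p = 0.0257). Both had separate groups with H1047R too, where the differences of 0.14 and 0.09 did not pass (edgeR adjusted p = 0.148 and 0.399). Among the other 8 non-ATPase subunits, the ubiquitin receptor PSMD4 and the base scaffolds PSMD1 and PSMD2 had differences of 0.03 to 0.12 with either vector.

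PSMG1, a chaperone that assists the assembly of the alpha ring, had 63.6, 60.2 and 60.3 CPM in empty-vector vehicle cells and 66.9, 71.7 and 74.5 CPM with insulin (0.21 ± 0.05, edgeR adjusted p = 0.0173). With H1047R it had 64.5, 66.2 and 62.1 CPM in vehicle and 69.3, 72.4 and 70.4 CPM with insulin, again apart, with a difference of 0.13 that did not pass (edgeR adjusted p = 0.289). Its partner PSMG2 had differences of 0.00 and -0.03 with the 2 vectors, and PSMG3 and PSMG4 did not pass either.

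The catalytic beta subunits had log2 differences of -0.03 to 0.14 with insulin, and none passed with either vector. PSMB5, the chymotrypsin-like subunit, had 86.6, 101 and 105 CPM in empty-vector vehicle cells and 96.8, 90.4 and 98.8 CPM with insulin. With H1047R it had 98.1, 105 and 93.8 CPM in vehicle and 111, 104 and 113 CPM with insulin. The groups overlapped with both vectors, and the log2 differences were -0.03 and 0.14 (edgeR adjusted p = 0.852 and 0.392). The caspase-like PSMB6 had differences of 0.08 and 0.09 with overlapping groups, and the trypsin-like PSMB7 had 0.09 with each vector without overlap, but none passed (edgeR adjusted p of 0.341 to 0.557). As an average over both vectors, PSMB5, PSMB6 and PSMB7 were at 0.05 ± 0.04, 0.08 ± 0.04 and 0.09 ± 0.03 (edgeR adjusted p = 0.583, 0.16 and 0.129).

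When the insulin effect was averaged over both vectors, 15 of the 43 genes were higher and none lower, against 5.22% of all genes called lower, 3.15% called higher and 6.38% of those of at least 50 CPM. By role these were 3 of 7 alpha subunits (median log2 difference 0.16), none of 7 beta subunits (0.09), 4 of 6 ATPases (0.13), 6 of 11 non-ATPase subunits (0.09), none of 3 base chaperones (0.09), 1 of 5 activators and inhibitor (0.02) and 1 of 4 chaperones of the 20S particle (0.02). Although no beta subunit passed, 6 of the 7 had an unadjusted p under 0.05, with differences of 0.05 to 0.10 across the ring. Such a p was found for 4515 of the 23184 genes tested and for 1778 of the 4825 of at least 50 CPM. The 15 were PSMA3, PSMA4, PSMA5, PSMC1, PSMC2, PSMC5, PSMC6, PSMD1, PSMD6, PSMD11, PSMD12, PSMD13, PSMD14, PSME2 and PSMG1, with differences of 0.09 to 0.20. PSME2, a subunit of the 11S activator, was higher by 0.13 ± 0.04 (edgeR adjusted p = 0.0253), while its partner PSME1 was at -0.03 (edgeR adjusted p = 0.783).

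**Figure D3:**
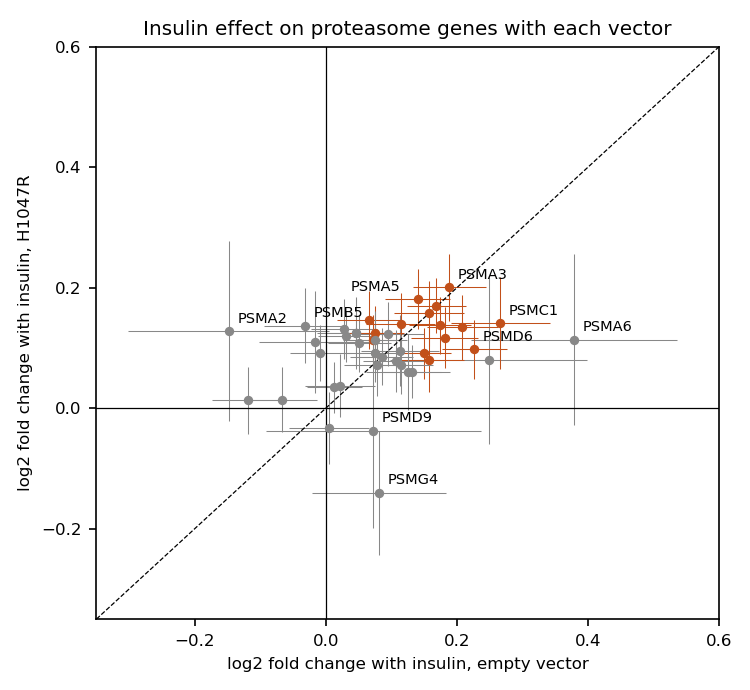
Log2 difference with insulin for each of 43 proteasome genes, with empty vector on the horizontal axis and with H1047R on the vertical axis; bars are SE, the dashed line marks equal values, and orange marks the 15 genes that passed as an average over both vectors. Most points (34 of 43) lie in the upper right quadrant, with PSMA2, PSMA6 and PSMD9 on wide error bars.

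These counts of calls moved with the libraries. The empty-vector insulin libraries were uneven. A chi-square compared the counts of 2 libraries of a group gene by gene. Its mean was 12.53 and 13.59 for library 2 against libraries 1 and 3. All other pairs within a group had 3.236 to 6.522. Library 3 had 6.168% of its gene counts on the forward strand, against 5.895% and 5.772% in libraries 1 and 2. With empty vector, the 8 genes became 2 without any 1 of the 3 empty-vector vehicle libraries, 5 without empty-vector insulin library 3 or H1047R vehicle library 1, and 0 when only the compared groups were fitted. With H1047R, the 3 genes became 0 without H1047R vehicle library 1 or 3 or H1047R insulin library 2 or 3, 1 without siNT library 5 or 6, H1047R vehicle library 2 or H1047R insulin library 1, and 5 without empty-vector insulin library 2. The average over both vectors varied less, with 10 to 20 genes when each library was left out, all of them higher.

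Whether insulin acted differently with the 2 vectors was tested as an interaction. None of the 43 genes passed, and none had an unadjusted p under 0.05. No gene in the whole table passed either with edgeR (0%), although 1611 of 23184 had an unadjusted p under 0.05, and DESeq2 called 0 of the 43. The median interaction over the 43 was 0.01 on the log2 scale, from -0.27 for PSMA6 to 0.28 for PSMA2, and their median SE was 0.07. The larger number of calls with empty vector than with H1047R was thus not shown to be a difference between the vectors.

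siRSAD2 was compared with siNT in empty-vector vehicle cells. The siNT libraries were numbered 4 to 6 and the siRSAD2 libraries 1 to 3. No label gives a batch. If the numbers mark separate series of experiments, the siRNA and the series cannot be told apart. The siRSAD2 vehicle libraries also serve as the baseline of the empty-vector insulin and vehicle H1047R comparisons. Of the 43 genes, 4 were higher and 5 lower (edgeR quasi-likelihood test), against 9.82% of all genes called higher and 9.72% called lower. Together these were 9 of 43, where 19.5% of all genes and 38.4% of those of at least 50 CPM were called. The median log2 difference was -0.01 for the 43 and 0.02 for all genes. The groups did not overlap for 6 genes that were higher (16.1% of all genes) and 10 that were lower (17.1%). Without siNT library 5, empty-vector vehicle library 1 or empty-vector vehicle library 3 the 9 calls became 3, 3 and 4.

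PSMG1 had 50.6, 51.6 and 54.3 CPM with siNT and 63.6, 60.2 and 60.3 CPM with siRSAD2, the smallest adjusted p of the 43 (0.24 ± 0.05, or 17.75%, edgeR adjusted p = 0.00204). Its partner PSMG2 went the other way, with 51.4, 54.8 and 53.8 CPM with siNT and 47.1, 48.7 and 46.0 CPM with siRSAD2 (-0.17 ± 0.06, edgeR adjusted p = 0.0365). The 2 chaperones, which work as a pair, thus had opposite differences, each without overlap.

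PSMD10 (gankyrin), a chaperone of the 19S base, had 73.1, 81.0 and 72.9 CPM with siNT and 61.7, 69.7 and 62.3 CPM with siRSAD2 (-0.23 ± 0.06, edgeR adjusted p = 0.00827). PSME2 had 83.4, 83.2 and 79.9 CPM with siNT and 68.9, 73.2 and 73.0 CPM with siRSAD2 (-0.20 ± 0.05, edgeR adjusted p = 0.00563). Both were lower in every siRSAD2 library. PSMB2, a structural beta subunit, had 182, 173 and 178 CPM with siNT and 193, 200 and 205 CPM with siRSAD2 (0.17 ± 0.05, edgeR adjusted p = 0.0107). PSMD1 was higher (0.14, edgeR adjusted p = 0.0174), as was PSME4, the nuclear activator that caps the core particle without ATP, although its groups overlapped (0.14, edgeR adjusted p = 0.0488). PSMB6 and PSMD6 were lower (-0.15 and -0.14, edgeR adjusted p = 0.0287 and 0.0419), while PSMB5 and PSMB7 were at -0.03 and 0.07 (edgeR adjusted p = 0.783 and 0.381). No alpha subunit and no ATPase passed.

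**Figure D4:**
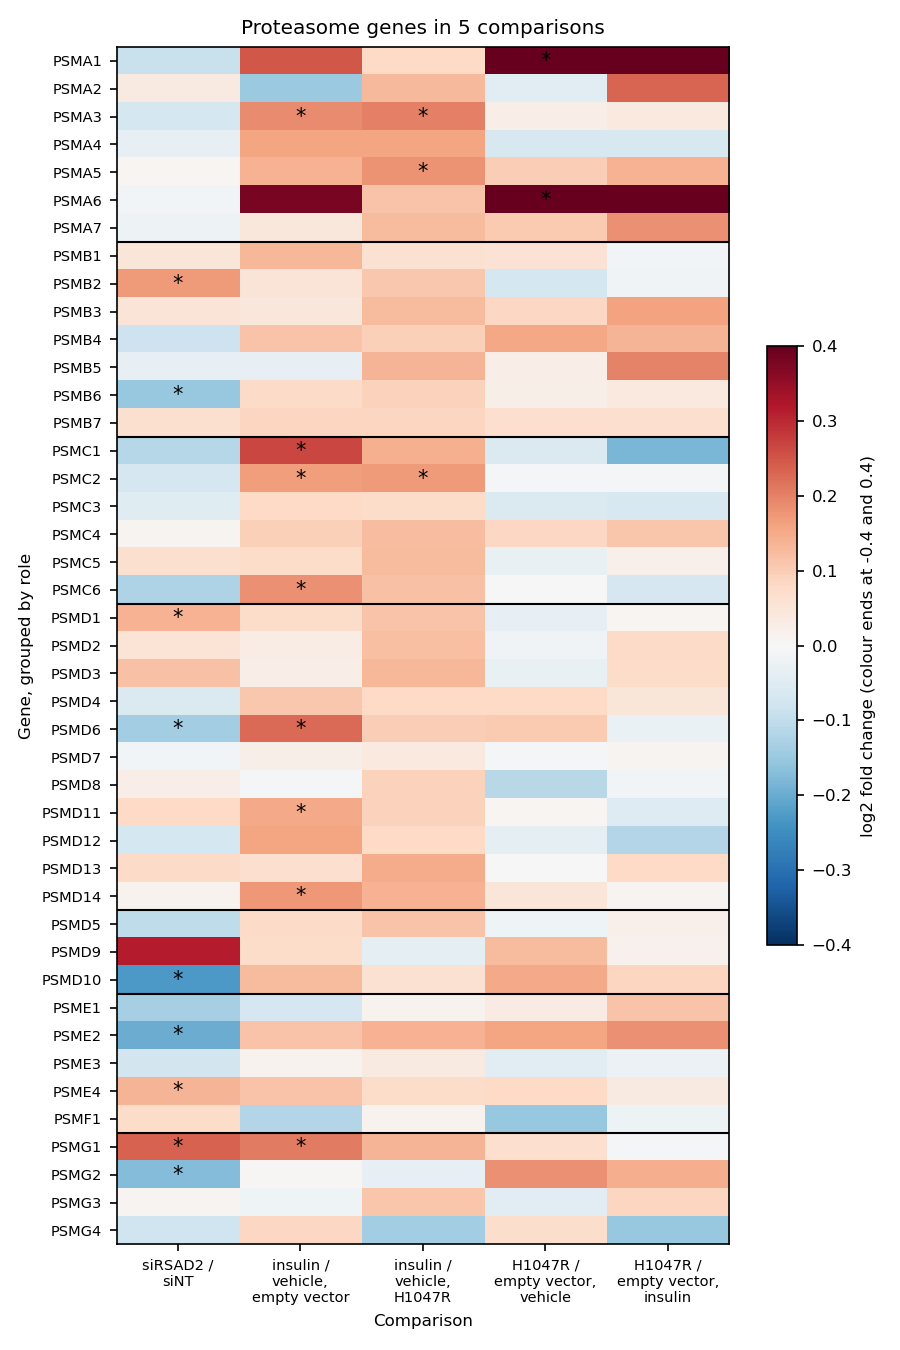
Log2 fold changes of 43 proteasome genes (rows, by role) in 5 comparisons (columns), with red for higher and blue for lower values in the first-named group and asterisks for an adjusted p below 0.05. The siRNA column is mixed, both insulin columns are mostly red, and PSMA1 and PSMA6 exceed the colour scale with H1047R.

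H1047R was compared with empty vector in siRSAD2 cells. In vehicle, 2 of the 43 genes were higher and none lower, against 0.621% of all genes called higher and 0.742% called lower. With insulin none of the 43 passed (0.285% of all genes called in either direction), although 12 had an unadjusted p under 0.05 and DESeq2 called 1. Such a p was found for 2440 of the 23184 genes tested. At 50 CPM or more it was found for 10 of 37 proteasome genes and 923 of 4825 genes. As an average over both treatments, 4 were higher and none lower (1.47% of all genes called higher and 1.25% lower). The median log2 difference was 0.03, 0.04 and 0.03 in these comparisons.

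The 2 genes called in vehicle were PSMA6 and PSMA1, both of the alpha ring and both among the genes that share exons with another model. PSMA6 had 5.60, 5.38 and 5.35 CPM with empty vector and 9.03, 11.1 and 7.96 CPM with H1047R in vehicle (0.80 ± 0.15, or 74.3%, edgeR adjusted p = 0.0044). PSMA1 had 9.85, 14.0 and 12.2 CPM with empty vector and 19.1, 18.6 and 18.6 CPM with H1047R (0.65 ± 0.14, or 56.8%, edgeR adjusted p = 0.0189). Neither pair of groups overlapped. These were the largest differences of the 43 in any comparison, on 129 to 439 counts for PSMA6 and 220 to 758 counts for PSMA1 per library.

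A property of the libraries moved with them. The share of gene counts on the forward strand, the one opposite to the kit's orientation, was 5.772% to 5.895% in 8 libraries and 6.11% to 6.50% in the other 7, which were the 6 H1047R libraries and empty-vector insulin library 3. PSMA1 had 9.44 to 14.7 CPM in the first 8 and 18.5 to 22.0 CPM in the other 7, with 19.2 CPM in empty-vector insulin library 3, where no H1047R was given. PSMA6 had 4.90 to 6.42 CPM in the first 8 and 7.96 to 11.4 CPM in the other 7, with 9.59 CPM in that library. In vehicle, H1047R and the library set cannot be told apart, since the set holds all H1047R vehicle libraries and no other vehicle library. A term for the set can be fitted only through empty-vector insulin library 3, the 1 library whose set differs from the rest of its group, and it widened the errors. With that term the H1047R difference in vehicle was -0.01 ± 0.22 for PSMA1 and 0.13 ± 0.24 for PSMA6, values that rest on this library and do not separate H1047R from the set. Insulin, which was given within both sets, gave 16 calls as an average over both vectors with this term.

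**Figure D5:**
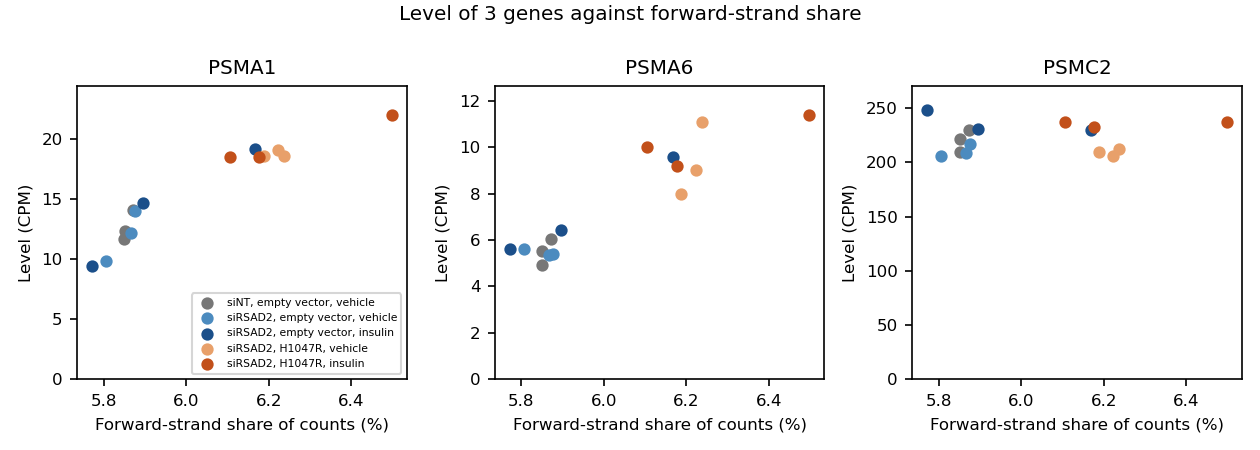
Level (CPM) of PSMA1, PSMA6 and PSMC2 against the forward-strand share of gene counts (%) in 15 libraries, coloured by group. PSMA1 and PSMA6 are higher in the 7 libraries with a share above 6%, including 1 empty-vector insulin library, whereas PSMC2 is higher with insulin than with vehicle among the siRSAD2 libraries of both sets.

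The other two genes called as an average over both treatments were PSME2 and PSMG2. PSME2 had 68.9, 73.2 and 73.0 CPM with empty vector and 84.7, 79.4 and 75.6 CPM with H1047R in vehicle, and 76.8, 76.1 and 80.2 CPM against 87.7, 87.6 and 88.9 CPM with insulin (0.17 ± 0.04 as an average, edgeR adjusted p = 0.00826). The H1047R libraries were the higher ones in both treatments, without overlap. PSMG2 was higher by 0.17 ± 0.04 (edgeR adjusted p = 0.0305). With the library-set term, which rests on 1 library, the average was 0.11 ± 0.08 for PSME2 and 0.04 ± 0.09 for PSMG2 (edgeR adjusted p = 1 for both). The levels of PSME2 overlapped between the sets, at 68.9 to 83.4 CPM in the 8 libraries and 75.6 to 88.9 CPM in the other 7. The catalytic subunits PSMB5, PSMB6 and PSMB7 had log2 differences of 0.03, 0.02 and 0.07 with H1047R in vehicle and 0.20, 0.04 and 0.07 with insulin, and none passed (edgeR adjusted p of 0.203 to 0.922). The counts of calls depended on single libraries. The 2 in vehicle became 0 without H1047R vehicle library 2 and 1 without H1047R vehicle library 1 or 3 or empty-vector vehicle library 1. With insulin the count rose from 0 to 4 without empty-vector insulin library 3. The 4 of the average became 2 without H1047R vehicle library 1, 7 without empty-vector insulin library 1 and 8 without empty-vector insulin library 3. Without empty-vector insulin library 3, H1047R and the library set cannot be told apart in either treatment. Among the fits with 1 library left out, up to 2 genes were called lower for the average and up to 1 with insulin.

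A list of 41 other genes of the pathway was read beside the members. These other genes were the inducible subunits, factors bound to the proteasome, regulators of its genes, shuttle factors that bring substrates to it, and ubiquitin with its activating enzymes. The inducible subunits PSMB8, PSMB9 and PSMB10, which replace the catalytic subunits in the immunoproteasome, were at 21.5 to 30.5, 14.5 to 21.8 and 3.54 to 6.26 CPM, and none passed in any comparison. Of the 41, 6 were higher and 8 lower with siRSAD2, 2 and 5 with insulin in empty-vector cells, none and 3 with insulin in H1047R cells, and 2 and 1 with H1047R in vehicle. For siRSAD2, 19.5% of all genes and 38.4% of those of at least 50 CPM were called in either direction, and with insulin in empty-vector cells 2.1% of all genes were higher and 4.19% lower. With insulin in H1047R cells these were 0.483% and 1.99%, and with H1047R in vehicle 0.621% and 0.742%. POMP, the maturation factor of the core particle, had 102, 104 and 103 CPM in empty-vector vehicle cells and 117, 132 and 129 CPM with insulin (0.29 ± 0.05, edgeR adjusted p = 0.000372). With H1047R it had 119, 120 and 120 CPM in vehicle and 128, 134 and 134 CPM with insulin, and as an average over both vectors it was higher with insulin by 0.22 ± 0.04 (edgeR adjusted p = 0.000104). The insulin libraries were above the vehicle libraries with both vectors.

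RPS27A, which encodes ubiquitin fused to a ribosomal protein, had 293, 312 and 300 CPM with siNT and 136, 150 and 152 CPM with siRSAD2 in empty-vector vehicle cells (-1.05 ± 0.07, edgeR adjusted p = 1.89e-12). It was the gene of the list with the largest difference in any comparison. With H1047R in vehicle RPS27A was higher by 0.36 ± 0.07 (edgeR adjusted p = 0.0069), at 187, 203 and 173 CPM. POMP was also called higher there (0.22, edgeR adjusted p = 0.0282). For both genes, H1047R in vehicle cannot be told apart from the library set. In the empty-vector insulin group, RPS27A had 154 and 123 CPM in libraries 1 and 2. Library 3, of the set with the higher forward-strand share, had 168 CPM. Among bound factors, PITHD1 (0.36) and the ubiquitin ligase UBE3C (0.22) were higher with siRSAD2 and FBXO7 (-0.29) and PAAF1 (-0.21) were lower. Among shuttle factors, NPLOC4 was higher (0.19) and UBQLN2 (-0.18) and RAD23B (-0.14) were lower with siRSAD2.

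Among 9 regulators of the subunit genes, 5 were lower with insulin as an average over both vectors and none higher, against 5.22% of all genes called lower and 3.15% called higher. NGLY1, an enzyme that processes NFE2L1, was higher with insulin in empty-vector cells (0.22 ± 0.07, edgeR adjusted p = 0.0451) and did not pass with H1047R (0.07, edgeR adjusted p = 0.862) or as an average (0.15, edgeR adjusted p = 0.0594). NFE2L1, the factor that raises subunit genes after proteasome inhibition, was lower by a small amount (-0.11 ± 0.03, edgeR adjusted p = 0.0381). The small Maf proteins, which pair with it on the DNA, were lower, with MAFF at -0.71, MAFK at -0.33 and MAFG at -0.21 (edgeR adjusted p = 5.59e-12, 9.29e-05 and 0.000222). BACH1, a repressor that competes for the same elements, had 132, 127 and 121 CPM in empty-vector vehicle cells and 88.2, 94.4 and 90.8 CPM with insulin, and 128, 138 and 142 CPM against 93.9, 98.7 and 96.4 CPM with H1047R (-0.49 ± 0.04 as an average, edgeR adjusted p = 3.78e-11). The groups of BACH1 were far apart with both vectors. With siRSAD2 against siNT, MAFF (0.63), MAFG (0.43) and NFE2L1 (0.20) were higher, and DDI2, the protease that activates NFE2L1, was lower (-0.52, edgeR adjusted p = 3.55e-06), as were NFE2L2 (-0.16) and BACH1 (-0.17). The part of these regulators in the subunit levels was not tested.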

How the data were processed

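Total RNA of 12Z cells was sequenced as paired ends after an mRNA library kit from 500 ng of RNA. The authors trimmed reads with cutadapt and Trim Galore, used STAR on hg38, and deposited its raw gene counts per library, with no normalisation. Versions are not given in the sources used here. The methods name an annotation with a mouse release number, but the identifiers are human, and 60357 of 60617 matched GENCODE release 44, the source of symbols, biotypes and coordinates. The reverse-stranded counts were used, which totalled 16.1 to 39.7 M per library (median 24.3 M). STAR's entries for unmapped, multimapping, unassigned and ambiguous reads stayed out of library sizes.

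The 23184 genes whose mean reached 1 count were fitted over 15 libraries in edgeR 4.0.16 under R 4.3.3, using 1 term for each group, TMM normalisation, the quasi-likelihood F test and Benjamini-Hochberg adjustment over all genes (threshold 0.05). CPM values were scaled by TMM. Precision rests on n = 3 per group and 10 residual degrees of freedom. The script was tested on simulated data. Values are given for RSAD2, PIK3CA, the catalytic subunits, up to 8 called genes with the smallest p in each comparison, the extremes of level per kilobase, undetected genes, and up to 3 called genes of each pathway list. Other genes named with values, such as PSMB1, PSME1, PSMG2 with insulin, the genes that share exons and the remaining called regulators, were chosen after their values were seen. The values of 1 called pathway gene are not reported here. The genes examined and the pathway lists were chosen with earlier results of these data known. Alternatives were DESeq2 1.42.0, RLE factors, other filters, a threshold of 0.001 and unstranded counts. Further ones fitted only the compared groups, added a replicate block or left out each library. After the data were seen, 2 were added. These were a term for the library set, and leaving out empty-vector vehicle library 3 and empty-vector insulin library 2 together. Promoter sequences are from RefSeq (GRCh38.p14).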

Additional observations from a re-analysis of the deposited data

How the results depend on the processing

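The numbers of proteasome genes called depended on the settings more than their direction did. With 1 library left out, however, up to 2 genes were called lower for the H1047R average and up to 1 for H1047R with insulin. At an adjusted p below 0.001, the calls were 0 for siRSAD2 (9 at 0.05), 0 for insulin with empty vector (8), 0 for insulin with H1047R (3), 0 for H1047R in vehicle (2), 1 for insulin averaged over both vectors (15) and 1 for H1047R averaged over both treatments (4). DESeq2 called 8 for insulin with H1047R, 1 for H1047R in vehicle, 1 for H1047R with insulin (0 with edgeR) and 7 for the H1047R average. Without a filter, 4 were called for H1047R with insulin and 8 for the H1047R average. With only the compared groups in the fit, 0 were called for insulin with empty vector and 10 for insulin with H1047R. Without empty-vector vehicle library 3 and empty-vector insulin library 2 together, 5 were called for insulin with H1047R. With the library-set term, 0 were called for H1047R in vehicle and for its average, and PSMA1 in vehicle was -0.0132 ± 0.2249 (SE); this term rests on empty-vector insulin library 3 alone and widens the errors, so neither the lost calls nor that sign shows that a difference went away. Leaving out each library in turn gave 3 to 10 calls for siRSAD2, 2 to 8 for insulin with empty vector, 0 to 5 for insulin with H1047R, 0 to 2 for H1047R in vehicle, 0 to 4 for H1047R with insulin, 0 for the interaction, 10 to 20 for the insulin average and 2 to 8 for the H1047R average. The cause was not tested except where fewer libraries or another threshold is the change itself. Over single named genes and all settings except those with 1 library left out, 612 values kept direction and call. Another 126 lost the call and 1, PSMA1 with the library-set term, changed sign. With 1 library left out these counts were 926, 214 and 0.

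The replicate numbers of the 12 siRSAD2 libraries showed no clear pairing. Deviations from the group means of same-numbered libraries correlated at -0.097 to 0.127, with 0.127, 0.112 and 0.081 between the insulin groups. Among the 3 libraries of another group, a library correlated best with its own number in 9 of 36 cases. These correlations took in all genes tested, including those of few counts, so they cannot show that the libraries were unpaired. With the replicate number as a block, 7 genes were called for insulin with empty vector, 2 for insulin with H1047R, 2 for H1047R in vehicle, 0 for H1047R with insulin, 0 for the interaction, 10 for the insulin average and 3 for the H1047R average. The siNT libraries share no number with the others, so siRSAD2 had no such fit. PSMA1, PSMA2, PSMA6 and PSMD9, with few counts, had the widest errors, which limits what their differences show. PSMG4 had fewer counts than PSMA1 (a mean of 310.6 against 396.3 per library). Its SE for siRSAD2 was smaller (0.10 against 0.15), and the cause of the wide errors was not tested.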
